A study of Rattus norvegicus with 8 samples.

Results

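Flavin-containing monooxygenases are membrane enzymes of the endoplasmic reticulum that use oxygen, NADPH and a bound flavin to oxygenate small molecules, mostly at nitrogen and sulfur atoms. They are best known from the liver, kidney and lung, where they clear drugs and dietary amines, and some are also transcribed in fat. The genes described here are Fmo1, Fmo2, Fmo4, Fmo5 and Fmo6, taken by gene symbol from a table of 15590 genes measured in rat Achilles tendon, so they are 5 of 15590 genes. All 5 passed the filter on low values and were among the 13863 genes tested.

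The study sequenced polyA RNA from the right Achilles tendon of young adult male Sprague-Dawley (SD) rats without genetic modification. The naïve control (NC) group and the running group, named 0 h p.r., held 4 libraries each. Rats of the running group were killed directly after 1 h on a treadmill, and the comparison asks which transcripts differ in tendon at that moment. Neither group is a purified cell population, and the tissue held fat and muscle RNA in both groups. Control rats of the study's one-time run were killed together with a later post-run group, so the time of day may differ between the groups, and the labels do not give it for these libraries. The labels number the libraries without naming the animals, so p-values measure the spread between these libraries.

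The libraries held 11350560 to 17897056 reads in the listed genes. The tendon list (Tnmd, Scx and 8 other genes) gave a mean log2 level of 8.06 ± 0.364 (SD, n = 4) in NC against 8.26 ± 0.288 (SD, n = 4) in the running libraries, so defining tendon transcripts were present in both groups. The fat list, 12 adipocyte genes led by Adipoq, had a mean log2 level of 6.67 ± 0.525 in NC against 5.08 ± 0.509 in the running libraries (SD, n = 4 each), and the groups did not overlap (exact permutation test, two-sided p = 0.0286, the smallest that 70 assignments can give). The lists were chosen with earlier results of these data known, so that p is not independent of the choice. The skeletal muscle list, 10 genes, ran from 7.26 to 9.12 in NC and from 6.37 to 11.3 in 0 h p.r. and overlapped. In bulk tissue, fewer cells of a type and less RNA per cell cannot be told apart. Library 0 h p.r. 4 stood nearest to the controls in fat RNA and had the lowest muscle list level of all, and values without it are given where it changed a call. Library NC 2 had the fewest reads, the highest summed FPKM (900138, against 554130 to 746030 in the others) and the lowest limma array weight (0.238, against 0.566 to 1.78). Without NC 2, Fmo5 stayed called (1.72, limma adjusted p = 0.0276) and Fmo6 did not (-1.43, adjusted p = 0.0941).

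Fmo5 rose and Fmo6 fell after the run, and Fmo1, Fmo2 and Fmo4 had lower means that did not pass the test. Fmo5 was 3.01 ± 0.174 FPKM (fragments scaled to gene length and library size) in NC, against 11.6 ± 4.97 FPKM after the run (SD, n = 4 each). Fmo6 stood at 4.76 ± 2.02 FPKM in NC against 1.28 ± 0.965 FPKM after the run. The genes called were 2 of the 5, against 2.7% of all tested genes with an adjusted p below 0.05 and a change of at least 2-fold. By direction, Fmo5 was 1 of the 1.8% of tested genes called higher, and Fmo6 was 1 of the 0.894% called lower.

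Fmo5 (ENSRNOG00000018076) encodes the atypical member of the family, which prefers to insert oxygen next to a carbonyl group over oxygenating nitrogen or sulfur. Its level was 3.11, 3.20, 2.92 and 2.82 FPKM in the 4 NC libraries and 11.6, 10.3, 18.3 and 6.33 FPKM in the 4 running libraries. The controls sat within 1.13-fold of each other, the runners spread over 2.89-fold, and the lowest runner was above the highest control. Behind these values stood 71 to 124 reads per control library and 256 to 525 reads per running library. On the log2(FPKM + 0.5) scale Fmo5 was higher by 1.70 (SE 0.26, 95% confidence interval 1.10 to 2.30, limma adjusted p = 0.00938), a 3.24-fold change. Its groups were separate, as were those of 8.15% of all tested genes in the same direction, and of the other 4 genes 0 were separate, against 7.47% of all tested genes in the lower direction. Leaving out each library in turn gave changes of 1.46 to 1.94 with adjusted p of 0.00189 to 0.0339, so the call stood in all 8 of those fits. With the skeletal muscle score as a covariate Fmo5 was still called higher (limma adjusted p = 0.00769). With the fat score as a covariate Fmo5 was not called (1.20, limma adjusted p = 0.762), in a fit that called 0 genes.

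Fmo6 (ENSRNOG00000049851) is the rat counterpart of a gene that is regarded as a pseudogene in humans. Its level was 6.12, 6.76, 3.66 and 2.48 FPKM in NC and 0.753, 0.517, 1.17 and 2.67 FPKM in 0 h p.r. Library 0 h p.r. 4 was above NC 4, so the groups overlapped. The running libraries rested on few reads, 16, 15, 24 and 77. Fmo6 was lower by 1.62 on the log2 scale, written as a change of -1.62 (SE 0.40, 95% confidence interval -2.51 to -0.72), and its limma adjusted p of 0.0482 lay just inside the threshold. Leaving out each library in turn gave adjusted p of 0.0136 to 0.134 and lost the call 6 times out of 8, and also with the smaller pseudocount, without the filter, with quantile scaling and with voom.

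**Figure D1:**
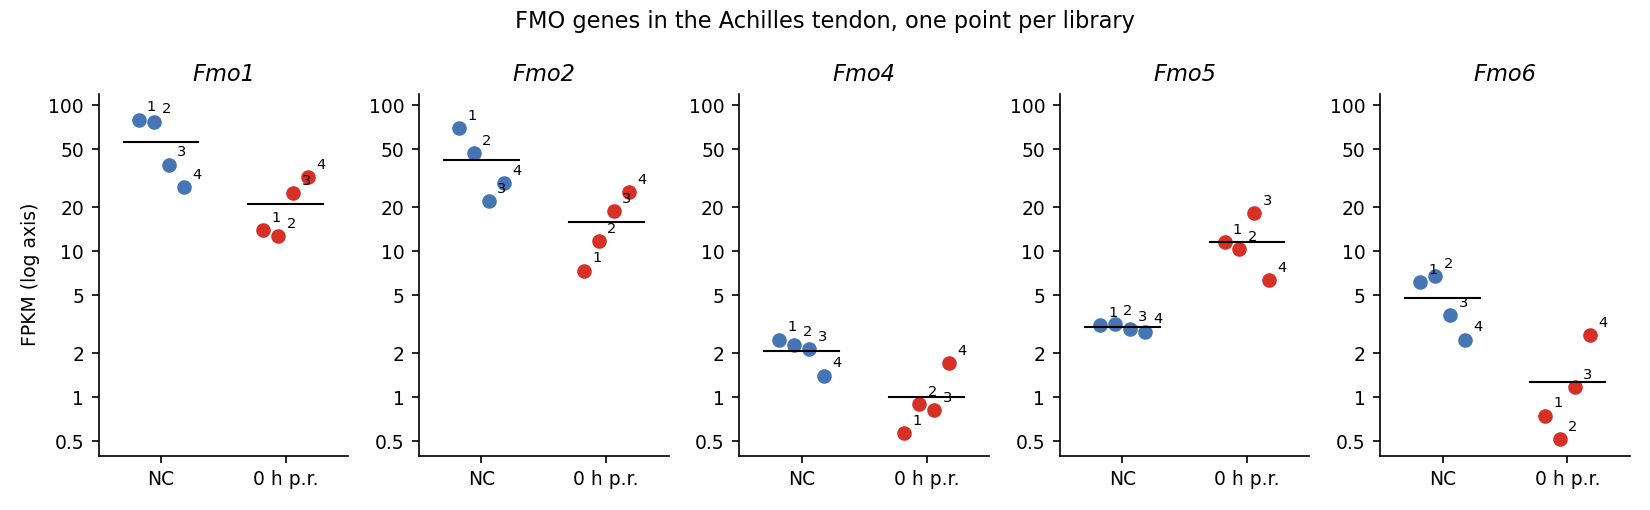
FPKM of each of the 5 genes in each library on a log axis, with 1 point per library numbered by replicate, NC in blue and 0 h p.r. in red, and a bar at the group mean. Fmo5 has its 4 running libraries above the 4 controls, whereas for Fmo1, Fmo2, Fmo4 and Fmo6 running library 4 lies inside the control range.

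Fmo1 (ENSRNOG00000034191), the classic kidney form, which also converts hypotaurine to taurine, was the most abundant of the 5. Its level was 79.3, 77.1, 39.2 and 27.5 FPKM in NC and 14.0, 12.7, 25.0 and 32.1 FPKM in 0 h p.r. The first 3 running libraries lay below every control, and 0 h p.r. 4 lay above NC 4. The change was -1.36 on the log2 scale (SE 0.41, 95% confidence interval -2.27 to -0.44), and it missed the threshold (limma adjusted p = 0.0856).

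Fmo2 (ENSRNOG00000003510), the main lung form in many mammals, followed closely in level. Its FPKM was 69.2, 47.1, 22.1 and 29.1 in NC and 7.37, 11.7, 18.8 and 25.3 in 0 h p.r. As for Fmo1, only library 0 h p.r. 4 reached into the control range. The change was -1.38 (SE 0.43, 95% confidence interval -2.35 to -0.41, limma adjusted p = 0.0963).

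Fmo4 (ENSRNOG00000003400), whose substrates are the least known of the family, was low throughout. Its level was 2.48, 2.29, 2.15 and 1.41 FPKM in NC and 0.569, 0.904, 0.820 and 1.72 FPKM in 0 h p.r., from 50 to 105 reads per control library and 18 to 74 per running library. Again 0 h p.r. 4 alone overlapped the controls. The change was -0.82 (SE 0.25, 95% confidence interval -1.38 to -0.25, limma adjusted p = 0.0905), and a pseudocount of 0.5 FPKM understates a change at such low levels.

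The number of genes that passed depended on the libraries used. It was 1, Fmo5 alone, without any 1 of NC 1, NC 2, NC 3, 0 h p.r. 1, 0 h p.r. 2 or 0 h p.r. 3, and 2 without NC 4. Without 0 h p.r. 4, all 5 passed, with limma adjusted p of 0.0481 for Fmo1, 0.0495 for Fmo2, 0.0262 for Fmo4, 0.00189 for Fmo5 and 0.0136 for Fmo6, while the number of called genes across the table also went from 374 to 516. That library had the highest Fmo1, Fmo2, Fmo4, Fmo6 and Adipoq of the running group and its lowest Fmo5.

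**Figure D2:**
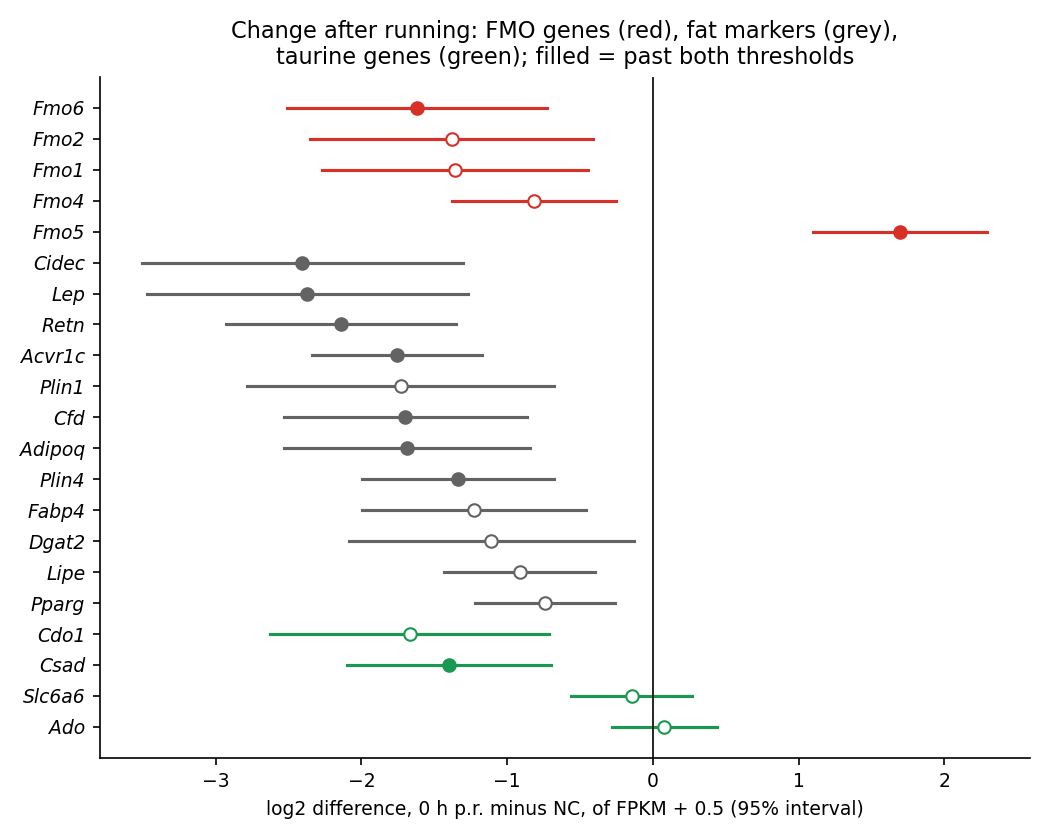
Change from NC to 0 h p.r. on the log2(FPKM + 0.5) scale with its 95% confidence interval from limma, for the 5 genes (red), the 12 fat genes (grey) and the 4 taurine genes (green), filled where both thresholds were passed. Fmo5 stands at 1.70, and the other 4 lie between -1.62 and -0.82, on the side of the fat genes, whose median is -1.69.

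The make-up of the family's RNA differed between the groups. The summed level of the 5 genes was 107 ± 48.2 FPKM in NC against 50.7 ± 17.9 FPKM in the running libraries (SD, n = 4 each). Fmo5 made up 3.23% ± 1.27 of that sum in NC, with a range of 1.94% to 4.45%. In the running libraries it made up 33.8%, 28.6%, 28.5% and 9.29%, so every runner was above every control. Fmo1 went from a mean share of 51.4% to 40.5%, Fmo2 from 38.8% to 30.1% and Fmo6 from 4.48% to 2.34%, while Fmo4 was at 2.13% and 1.99%, and for each of these 4 genes the shares of the groups overlapped.

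The order of the genes by FPKM, which is scaled to transcript length, differed between the groups at 1 place. Fmo1 was above Fmo2 in 7 of 8 libraries, and these neighbours in the order were within the spread of each other. Fmo6 was above Fmo5 in 3 of 4 controls and in 0 of 4 runners. Fmo5 exceeded Fmo4 in 8 of 8 libraries, and in 1 running library, 0 h p.r. 1, it also exceeded Fmo2. Ranked among all tested genes by mean FPKM, Fmo5 went from percentile 24.0 to percentile 59.3, Fmo1 from 91.1 to 74.4, Fmo2 from 87.9 to 67.6, Fmo6 from 34.4 to 11.2 and Fmo4 from 17.3 to 8.19.

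**Figure D3:**
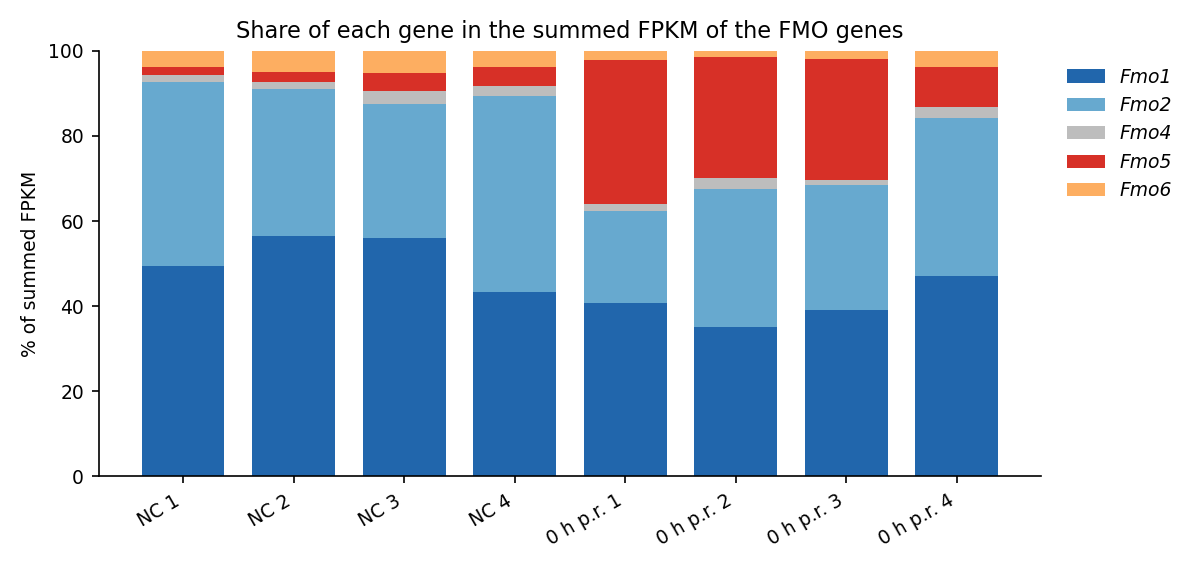
Share of each of the 5 genes in their summed FPKM, as a percentage, in each of the 8 libraries. Fmo1 and Fmo2 fill most of every control bar, and the Fmo5 part grows from at most 4.45% in NC to between 9.29% and 33.8% in 0 h p.r.

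The genes were then compared with each other by the difference of their changes, over 10 pairs. Fmo5 parted from each of the others, by 3.06 log2 units from Fmo1 (coded Fmo1 minus Fmo5, -3.06), by -3.08 for Fmo2 minus Fmo5, -2.51 for Fmo4 minus Fmo5 and 3.31 for Fmo5 minus Fmo6. In each of these 4 pairs the libraries of the groups did not overlap (exact permutation test, two-sided p = 0.0286, adjusted over the 10 pairs 0.0571, so none passed 0.05). The smaller difference Fmo4 minus Fmo6, 0.80, reached the same p. Fmo1 and Fmo2 changed by amounts that differed by 0.02 (exact p = 0.943).

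A main question was how far each gene tracked fat RNA, which ran against muscle RNA across these libraries (values below). Adipoq, the adipocyte hormone adiponectin, was 688, 593, 433 and 293 FPKM in NC and 90.0, 148, 125 and 284 FPKM in 0 h p.r. The highest runner lay just below the lowest control, and the change was -1.69 (SE 0.37, limma adjusted p = 0.0363). Fmo4 had the highest r with Adipoq of the 5 over both groups, though within NC alone Fmo1 and Fmo6 were higher. After the group means were removed, Fmo4 and Adipoq had a Pearson r of 0.979 and a Spearman rho of 0.976 over 8 libraries (exact permutation within groups, p = 0.00174 for each, the smallest that the pairings within groups can give, adjusted p = 0.0521 over 30 relations). The r was 0.954 within NC and 0.998 within 0 h p.r., and 0.954 without the 2 libraries whose centred Adipoq lay farthest from its median, 0 h p.r. 1 and 0 h p.r. 4.

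Fmo6 had an r with Adipoq of 0.854 (exact permutation p = 0.0260, rho 0.762, p = 0.0590), Fmo1 of 0.812 (p = 0.0243, rho 0.786, p = 0.0451) and Fmo2 of 0.809 (p = 0.0330, rho 0.786, p = 0.0451). Adjusted over the 30 relations these were 0.130, 0.130 and 0.141 for r and 0.221 for each rho, so none passed. Without the same 2 libraries r was 0.776 for Fmo6, 0.772 for Fmo1 and 0.660 for Fmo2. The values within NC were 0.964, 0.978 and 0.782, and within 0 h p.r. 0.782, 0.692 and 0.837, in the order Fmo6, Fmo1 and Fmo2.

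Fmo5 did not share that pattern in sign. Its r with Adipoq was -0.512 (exact permutation p = 0.288, adjusted 0.410) and its rho was -0.405 (p = 0.427, adjusted 0.610). The r was 0.921 within NC, where Fmo5 varied by only 1.13-fold, and -0.740 within 0 h p.r., and it was 0.025 without 0 h p.r. 1 and 0 h p.r. 4, so the negative value rests on those 2 libraries. No pooled r is given with Adipoq, because its groups did not overlap.

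**Figure D4:**
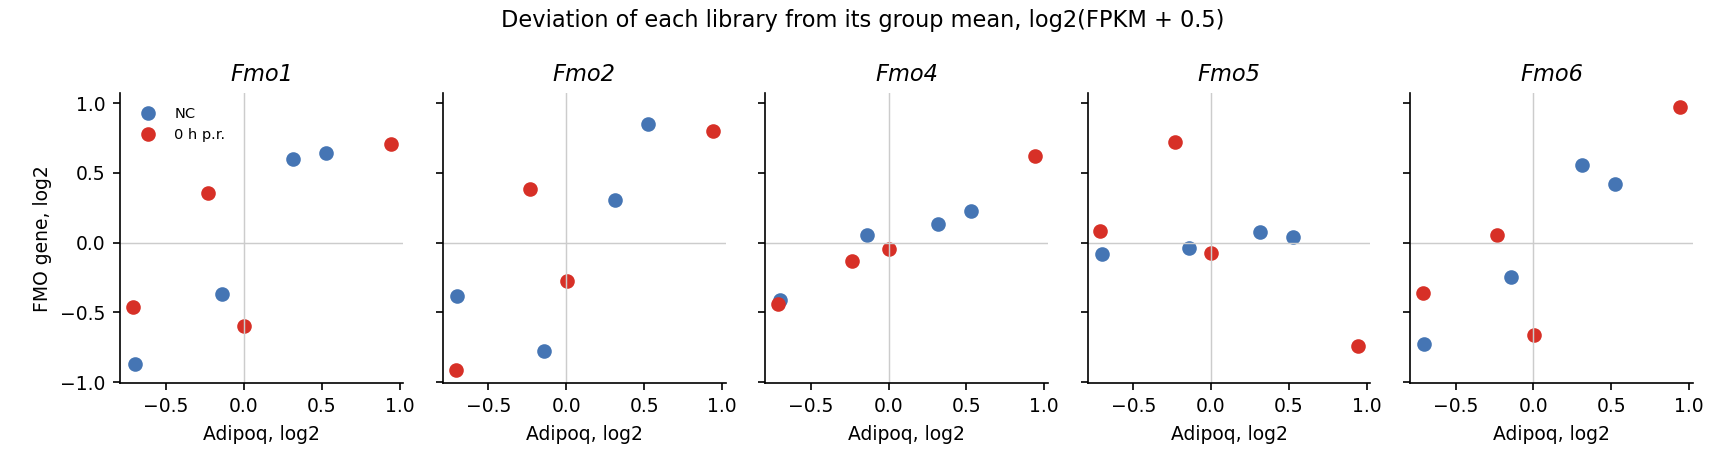
Deviation of each library from its group mean on the log2(FPKM + 0.5) scale, for each of the 5 genes (vertical) against Adipoq (horizontal), with NC libraries in blue and 0 h p.r. libraries in red. The points of Fmo4 lie nearly on a line (r = 0.979), those of Fmo1, Fmo2 and Fmo6 climb with more scatter, and those of Fmo5 do not climb (r = -0.512).

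With the mean of the 12 fat genes in place of Adipoq alone, the order changed. Fmo2 had the highest r, 0.869 (exact permutation p = 0.0156, adjusted 0.130), followed by Fmo4 at 0.862 (p = 0.0226, adjusted 0.130, exact permutation). Fmo1 was at 0.739 (exact permutation p = 0.0521, adjusted 0.156), Fmo6 at 0.714 (p = 0.0781, adjusted 0.195) and Fmo5 at -0.381 (p = 0.372, adjusted 0.485). The rho values were 0.905 for Fmo2 (exact permutation p = 0.0139), 0.786 for Fmo4 (p = 0.0573), 0.667 for Fmo1 (p = 0.109), 0.571 for Fmo6 (p = 0.181) and -0.238 for Fmo5 (p = 0.668). Without the 2 libraries farthest from the median of the centred score, NC 1 and 0 h p.r. 4, r was 0.677 for Fmo2 and 0.874 for Fmo4, but 0.480 for Fmo1, 0.364 for Fmo6 and 0.221 for Fmo5, so the relations of Fmo1 and Fmo6 with the wider fat list rest largely on those 2 libraries.

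Each gene was also set against the fat score as a difference within its own library. Fmo1 changed by 0.23 log2 units relative to that score (exact p = 0.486), Fmo2 by 0.21 (exact p = 0.486) and Fmo6 by -0.02 (exact p = 0.943). No difference of these genes from the fat score was detectable in these libraries. With the list's median as the score, the differences were 0.61, 0.59 and 0.35 (exact permutation, adjusted p of 0.179, 0.143 and 0.486). Leaving out each library gave 0.09 to 0.46 for Fmo1, 0.03 to 0.34 for Fmo2 and -0.14 to 0.21 for Fmo6. The Fmo6 difference was -0.32 with a pseudocount of 0.1 FPKM and 0.20 with 1 FPKM. Fmo4 lay higher by 0.78 relative to fat in the running libraries, without overlap (exact p = 0.0286, adjusted over the 5 genes 0.0714), and this difference was 0.58 with a pseudocount of 0.1 FPKM and 0.91 with 1 FPKM. Fmo5 lay higher by 3.29, without overlap (exact p = 0.0286, adjusted 0.0714). The part of fat RNA in the changes of Fmo1, Fmo2, Fmo4 and Fmo6 was not tested beyond these values. A fit with the fat score as a covariate left 0 genes called by limma, with 905 at an unadjusted p below 0.05. The score did not overlap between the groups, so that fit can hardly separate fat RNA from the run.

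The scores of other tissues were compared in the same way. Fmo5 ran against the stromal fibroblast score (r = -0.916, exact permutation p = 0.0382, adjusted 0.143), and the value was -0.643 without the 2 farthest libraries. That relation was absent within NC (r = -0.004) and came from the running libraries (r = -0.930). Fmo4 ran against the endothelial score (r = -0.845, p = 0.0260, adjusted 0.130, exact permutation), with -0.902 within the running group and -0.701 within the controls. Against the muscle score, Fmo4 had an r of -0.805 (exact permutation p = 0.0625, adjusted 0.170), with -0.171 within NC, -0.991 within 0 h p.r. and -0.202 without 0 h p.r. 1 and 0 h p.r. 4. Fmo2 had an r of -0.757 with muscle (exact permutation p = 0.0434, adjusted 0.145), with -0.705 within NC, -0.853 within 0 h p.r. and -0.512 without the same 2 libraries. Of the 30 relations, 0 had an adjusted p below 0.05.

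**Figure D5:**
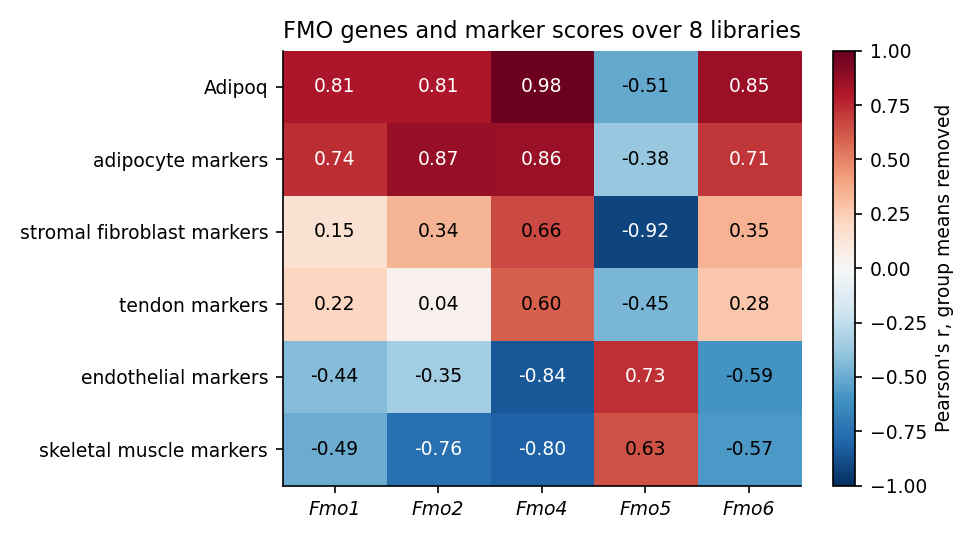
Pearson r, after removal of group means, of each of the 5 genes (columns) with Adipoq and each tissue score (rows) over 8 libraries, as a grid coloured from blue (negative) to red (positive) with the value in each cell. In the Adipoq and adipocyte rows Fmo1, Fmo2, Fmo4 and Fmo6 lie at 0.714 to 0.979 and Fmo5 is negative.

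A ranking over 13054 protein-coding genes by the same r placed Adipoq 3rd for Fmo4, 147th for Fmo6, 194th for Fmo1, 231st for Fmo2 and 10791st for Fmo5. The genes most like Fmo4 were Acp6 (r = 0.989), Zfp260 (0.983) and Adipoq (0.979). Those most like Fmo2 were Snrpa1 (0.985), Ywhab (0.964) and Thrsp (0.956), the last a lipid synthesis regulator of fat and liver. Fmo1 was most like Leng1 (0.991), Nt5c (0.979) and Cyp39a1 (0.972), and Fmo6 like Gls2 (0.986), Tsen54 (0.985) and Ckap2 (0.983). Fmo5 was most like Noa1 (0.980), Fam110d (0.976) and Rnd1 (0.969), and Rnd1, a small GTPase, was itself higher in the running libraries (2.31, limma adjusted p = 0.00180). Such values are a description over 8 libraries that differ in depth and in tissue make-up.

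In RefSeq's order of genes on the rat assembly GRCr8, Fmo4, Fmo1, Fmo2 and Fmo6 lie next to each other on chromosome 13, and Fmo5 lies apart on chromosome 2. Genes near these had small changes that did not pass, with Myoc at 0.27 (adjusted p = 0.566) and Prrx1 at -0.05 (adjusted p = 0.871). Beside Fmo5, Chd1l was at 0.02 (adjusted p = 0.972). Prkab2, which encodes a subunit of the energy sensor AMPK, lies on the other side and was 7.07 ± 1.46 FPKM in NC and 16.5 ± 10.8 FPKM in 0 h p.r. (0.95, SE 0.42, limma adjusted p = 0.218), with a change of 1.33 (adjusted p = 0.0424) without 0 h p.r. 4 and of 0.58 (adjusted p = 0.377) without 0 h p.r. 1.

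Promoters are shown for Fmo5, which rose, and for Fmo1 and Fmo6, cluster genes whose libraries varied together (centred r = 0.953). RefSeq's GRCr8 table gave 250 bases before the start for 4 of the 5 genes. The Fmo5 window is chr2:187910714-187910963 on the plus strand, the Fmo1 window chr13:77747667-77747916 and the Fmo6 window chr13:77821959-77822208, both on the minus strand. Each is printed 5′ to 3′ on the gene's strand, and capitals mark matches to the motifs searched.
Fmo5: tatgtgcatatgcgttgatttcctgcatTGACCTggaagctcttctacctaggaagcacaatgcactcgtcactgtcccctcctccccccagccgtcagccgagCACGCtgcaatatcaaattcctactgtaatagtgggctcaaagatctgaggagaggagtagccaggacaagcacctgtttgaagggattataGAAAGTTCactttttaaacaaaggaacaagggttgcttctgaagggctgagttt
Fmo1: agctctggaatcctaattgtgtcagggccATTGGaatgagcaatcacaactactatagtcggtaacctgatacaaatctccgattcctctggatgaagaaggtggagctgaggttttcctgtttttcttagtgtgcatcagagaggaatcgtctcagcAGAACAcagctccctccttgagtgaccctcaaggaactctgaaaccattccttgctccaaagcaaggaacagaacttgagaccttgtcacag
Fmo6: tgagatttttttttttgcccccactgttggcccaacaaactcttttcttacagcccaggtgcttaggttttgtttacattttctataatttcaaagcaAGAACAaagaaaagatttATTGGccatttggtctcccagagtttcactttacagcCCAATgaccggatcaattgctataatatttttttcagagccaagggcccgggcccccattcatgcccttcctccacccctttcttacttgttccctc

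The search covered 11 motifs on both strands, in these windows and in 33469 promoters of the same length. The Fmo5 window held AGGTCA, a core element of nuclear receptors, 222 bases before the start, GAANNTTC, the core of the heat shock element, 54 bases before it, and GCGTG, the core of the dioxin response element, 146 bases before it. These letters occur in 14.1%, 7.23% and 25.9% of all promoters. The cluster genes Fmo1, Fmo2 and Fmo6 each held AGAACA, a core element of the glucocorticoid receptor, at 92, 125 and 152 bases, and CCAAT, at 221 bases for Fmo1, 196 for Fmo2 and 134 and 97 for Fmo6. AGAACA occurs in 17.5% of promoters and CCAAT in 34.0%, and neither was found in the Fmo5 window. Fmo2 also held AGGTCA, 119 bases before its start. None of the 4 windows held TATAAA (the TATA box), TGANTCA (the AP-1 site), TGACGTCA (the cyclic AMP response element), AAAGGTCA (the NR4A element, which contains the nuclear receptor core), CACGTG (the E-box) or ACGTG (the hypoxia response core, which lies within the E-box). A match is a description of the letters, not a site.

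Genes that work beside these enzymes were taken by list. Of 9 tested genes that supply flavin and NADPH, 0 passed both thresholds (limma), against 2.7% of all tested genes. Their median change was -0.17, against -0.0014 for all genes. The 2 with the greatest changes were Idh1 (-0.53, limma adjusted p = 0.165) and Slc52a2, a riboflavin transporter (-0.50, adjusted p = 0.115). Of 20 other phase I enzymes, 2 fell and 0 rose, with a median of -0.37, where 0.894% of all tested genes were called lower and 1.8% higher. Cyp4b1, a fatty acid and xenobiotic hydroxylase, fell from 23.3 ± 6.57 to 9.65 ± 1.23 FPKM (-1.19, adjusted p = 0.0122). Cyp26b1, which degrades retinoic acid, fell from 53.5 ± 4.20 to 27.5 ± 10.3 FPKM (-1.01, adjusted p = 0.0380), a call that stood in 2 of the 8 fits without a library. Maob, a mitochondrial amine oxidase, was 12.6 ± 1.11 FPKM in NC and 19.6 ± 2.40 FPKM in 0 h p.r., without overlap, and had an adjusted p of 0.0278 (limma) at a change of 0.61, below the 2-fold limit. In the lower direction Cyp2u1 likewise had an adjusted p of 0.0232 at a change of -0.69, without overlap. Across libraries the centred r with the fat score was 0.808 for Cyp4b1, 0.421 for Cyp26b1 and -0.480 for Maob.

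Of 4 tested genes of taurine synthesis and transport, 1 fell and 0 rose, where 0.894% of all tested genes were called lower and 1.8% higher. Csad, the decarboxylase that makes hypotaurine, fell from 57.0 ± 17.8 to 22.2 ± 10.3 FPKM (-1.40, limma adjusted p = 0.0363), a call kept in 1 of the 8 fits without a library, the one without 0 h p.r. 4. Cdo1, the cysteine dioxygenase before it, was 345 ± 169 FPKM in NC and 110 ± 53.5 FPKM in 0 h p.r. and missed the threshold (-1.67, adjusted p = 0.0538), but it passed without 0 h p.r. 4 (-1.95, adjusted p = 0.0265), with array weights (adjusted p = 0.0269), with voom (adjusted p = 0.0495) and with the muscle covariate (adjusted p = 0.0194). Both followed the fat score across libraries (centred r = 0.937 for Csad and 0.978 for Cdo1). Of 8 oxidases that produce reactive oxygen species, 0 passed in either direction, against 2.7% of all tested genes. Nox1 was at -0.52 (limma adjusted p = 0.190) and Xdh at -0.43 (adjusted p = 0.392).

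Among the tissue lists, 7 of 12 fat genes fell and 0 rose, where 0.894% of all tested genes were called lower and 1.8% higher. The fat list was chosen with earlier results of these data known, so this count describes the list and is not an independent test. The median change of the fat genes was -1.69, against -0.0014 for all genes. Cidec, a lipid droplet protein, had a change of -2.41 (limma adjusted p = 0.0270), the hormones Lep and Retn of -2.37 (adjusted p = 0.0286) and -2.14 (adjusted p = 0.0117), and the receptor Acvr1c of -1.76 (adjusted p = 0.00740). For Adipoq and Lep the call was lost in 6 of the 8 fits without a library, and for Cidec in 4. In the lists of 8 stromal, 10 muscle, 8 endothelial and 10 tendon genes, 0 passed both thresholds, against 2.7% of all tested genes. The endothelial gene Egfl7 had an adjusted p of 0.0270 (limma) at a change of 0.75, below the 2-fold limit, without overlap. The muscle genes had wide errors, with SE from 0.91 for Acta1 to 1.34 for Myh7. Of these, 9 were higher and 1 was lower, Myh7 (-3.42, limma adjusted p = 0.169), so a lack of calls there is not a lack of change.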

How the data were processed

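RNA-seq of 4 NC and 4 0 h p.r. libraries was analysed. The authors captured polyA RNA, prepared stranded libraries, aligned reads with HISAT2 2.1.0 to Rnor_6.0 and counted them with featureCounts 1.6.3. The deposited FPKM values per gene and library were used. The authors' own log2 fold changes, p-values and adjusted p-values (DESeq2 1.30.1), deposited in the same table, were not used.

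Genes with at least 0.5 FPKM in at least 4 of 8 libraries were tested on log2(FPKM + 0.5) with limma 3.58.1 in R 4.3.3 (moderated with trend), with Benjamini-Hochberg adjustment over 13863 genes. A gene was called at an adjusted p below 0.05 and a change of at least 2-fold. Whole reads were recovered from the FPKM steps for 15590 of 15590 genes (within 0.02 reads) and served for depth, for read numbers and for limma's voom as an alternative. A gene with reads in a single library passes that step automatically. As a further check, the gene length implied was a whole number (within 0.05 bases) for 15558 genes. A tissue score is the mean log2 level of a marker list. Single values and pairs were tested by exact permutation over 70 assignments, two-sided, and correlations by exact permutation within groups, using scipy 1.17.1. The tests were checked on simulated data.

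The members and lists were chosen with earlier results of these data known. Named besides the 5 genes were Adipoq, the called genes of each list (at most 4) or its 2 largest changes where a result turned on them, and the 3 genes most like each member. Chromosome neighbours, Cdo1, Maob, Cyp2u1, Egfl7, Pvalb, Myh7, Acta1 and Rnd1's test were added. Alternatives changed the pseudocount, filter, scaling, weights, block, covariates, test and libraries. Handling of reads matching several genes is not given in the sources used here. Results that need items withheld for evaluation are not reported here.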

Additional observations from a re-analysis of the deposited data

How the results depend on the processing

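The rise of Fmo5 was called in every alternative run except the fit with the fat score as a covariate, where the score did not overlap between the groups. In that fit the changes were 0.22 for Fmo1, 0.59 for Fmo2 and 0.18 for Fmo4, all reversed in sign, and 1.20 for Fmo5 and -0.17 for Fmo6, with limma adjusted p from 0.762 to 0.985, and 0 genes and 0 of the 5 were called. The call of Fmo6 was lost with a pseudocount of 0.1 (-1.95, adjusted p = 0.0523), no filter (-1.62, 0.0531), quantile scaling (-1.57, 0.0654), voom on recovered reads (-2.01, 0.0559) and the replicate block (-1.62, 0.143), which left 1 of the 5 called. With the replicate block 212 genes were called against 374, and with the adjusted p alone 793. Same-numbered libraries correlated at -0.141, -0.071, 0.072 and 0.006 in their deviations from group means, and libraries with unequal numbers at -0.249 to 0.234. No pairing by number was visible in these values, but so few correlations cannot decide whether libraries were paired or shared a batch. Fmo5 had an adjusted p of 0.0330 under the block. Leaving out each library gave -1.65 to -1.15 for Fmo1, -1.65 to -1.08 for Fmo2, -1.02 to -0.67 for Fmo4, 1.46 to 1.94 for Fmo5 and -1.94 to -1.40 for Fmo6, 1 to 5 of the 5 called, and 195 to 516 genes called. Fmo4 could not be tested under a filter of mean FPKM of at least 2. Alternatives were added after seeing the data for Adipoq, Cidec, Lep, Retn, Acvr1c, Csad, Cdo1, Cyp4b1, Cyp26b1, Maob and Prkab2. They were not run for the other genes named besides the 5, Rnd1 and Cyp2u1 among them. Under the block Cyp4b1, Retn, Acvr1c, Csad, Cyp26b1, Cidec, Lep and Adipoq lost their calls. Cyp26b1 also lost its call with a pseudocount of 1 (-0.998) and with the muscle covariate (-0.96), both just under 2-fold. Few reads, 15 to 77 per running library, stood behind Fmo4 and Fmo6.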
